A study of Mus musculus with 24 samples.

Results

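The genes described here are 47 genes of DNA replication and S phase, taken from a fixed list of genes for origin licensing, replicative polymerases, nucleotide supply and control of the step from G1 into S phase. The rule names the genes and sets no threshold on their values, though the list was drawn up with earlier results of these data known, and all 47 were among the 14577 genes that could be tested, of 35968 listed. A cell that divides first loads the MCM2-7 helicase onto its origins in G1, a step that needs ORC, CDC6 and CDT1. Kinases and the factors CDC45, GINS and MCM10 then switch the helicase on, and DNA polymerases, their sliding clamp and a supply of deoxynucleotides copy the strands. Many of these genes are known targets of E2F factors, which are held back by the RB family, and myoblasts are known to switch the set off when they leave the cell cycle to become muscle.

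RNA was measured in C2C12 cells, an established mouse line of myoblasts, the precursors of skeletal muscle fibres. The cells were undifferentiated, grown below confluence in serum, and harvested 48 h after siRNA was added. There were 4 groups of 3 libraries each. The control cells (siCont) received a control siRNA whose sequence was found whole in no annotated transcript. The siKeap1 and siFem1b cells received one that targets the gene named, and the siFem1b/Keap1 cells received both of these. KEAP1 is the receptor of a CUL3 ubiquitin ligase for the oxidative stress factor NRF2, FEM1B is a receptor of CUL2 ligases, and the series concerns how cells sense reductive stress. A single siRNA sequence was used for each target, and no untransfected cells were among the groups. The labels give triplicates without saying that each came from a culture of its own. The spread behind every p-value is thus that of these 3 libraries a group and may be technical.

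The libraries held 31.9 M to 43.0 M estimated counts. The targeted genes checked the labels in all 12 libraries: Keap1 stood at 16.2% and 15.2% of its siCont level in siKeap1 and siFem1b/Keap1 and at 95.8% in siFem1b, and Fem1b at 13.7% and 13.1% in siFem1b and siFem1b/Keap1 and at 105.3% in siKeap1. No library stood apart from its group in the level of either gene. Of 7 myoblast markers, all were tested, and their summed level was 1945 to 1995 CPM (counts scaled to a common library size) in siCont. The 10 myotube markers summed to 13.9 to 17.5 CPM in siCont, 16.8 to 18.2 in siKeap1, 208 to 223 in siFem1b and 157 to 168 in siFem1b/Keap1.

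Per transcript length, the replication genes spanned a wide range in the siCont cells. In TPM, a transcript abundance corrected for length, the highest was Rrm2, the regulated subunit of ribonucleotide reductase, at 409 to 433 in the 3 libraries. Pcna, the sliding clamp, followed at 256 to 266 TPM, and then Rpa1, the large subunit of the single-strand binding protein, at 184 to 198 and the thymidine kinase gene Tk1 at 176 to 186. Neither of the first 2 overlapped its neighbour in this order, whereas Rpa1 and Tk1 overlapped each other. The MCM2-7 genes, whose products form a ring with 1 copy of each, lay between 82.4 TPM for the lowest library of Mcm4 and 174 for the highest of Mcm3. At the low end stood Ung at 16.8 to 18.6 TPM, the kinase gene Cdc7 at 13.4 to 16.3, E2f2 at 13.7 to 14.1 and Orc1 at 13.4 to 13.9. Of 46 neighbouring pairs in the order of mean TPM, 33 had overlapping libraries, so the order within the middle of the list is not resolved.

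Most of the 47 genes were lower in siKeap1 than in siCont, and nearly all were lower in siFem1b and in siFem1b/Keap1. With siKeap1, 32 of the 47 fell, 0 rose and 15 did not pass the threshold (edgeR quasi-likelihood test, Benjamini-Hochberg adjusted p under 0.05), where 23.8% of all tested genes were called lower and 18.4% higher. With siFem1b, 45 fell, 1 rose and 1 did not pass, against 32.1% of all genes called lower and 30% called higher. With siFem1b/Keap1, 46 fell and 1 did not pass, against 33.7% called lower and 33.8% higher. The 3 comparisons share the siCont libraries and are therefore not independent.

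The sizes of the changes were moderate. The median log2 fold change of the 47 genes was -0.22 in siKeap1, where that of all tested genes was -0.02, then -0.51 in siFem1b (all genes -0.01) and -0.74 in siFem1b/Keap1 (all genes 0.01). Falls of at least 1.5-fold numbered 3 in siKeap1 (3.46% of all genes), 15 in siFem1b (6.86%) and 36 in siFem1b/Keap1 (11.2%). All 3 libraries lay below all 3 of siCont for 37 genes in siKeap1 (28.9% of all genes), 45 in siFem1b (32.5%) and 46 in siFem1b/Keap1 (35.2%). Summed over the set, the 47 genes took 5442 to 5664 CPM in siCont, 4902 to 4923 in siKeap1, 3884 to 3977 in siFem1b and 3313 to 3427 in siFem1b/Keap1, so that the ranges of the 4 groups did not overlap. In a bulk sample, fewer cells in S phase and less of each RNA per cell cannot be told apart.

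**Figure D1:**
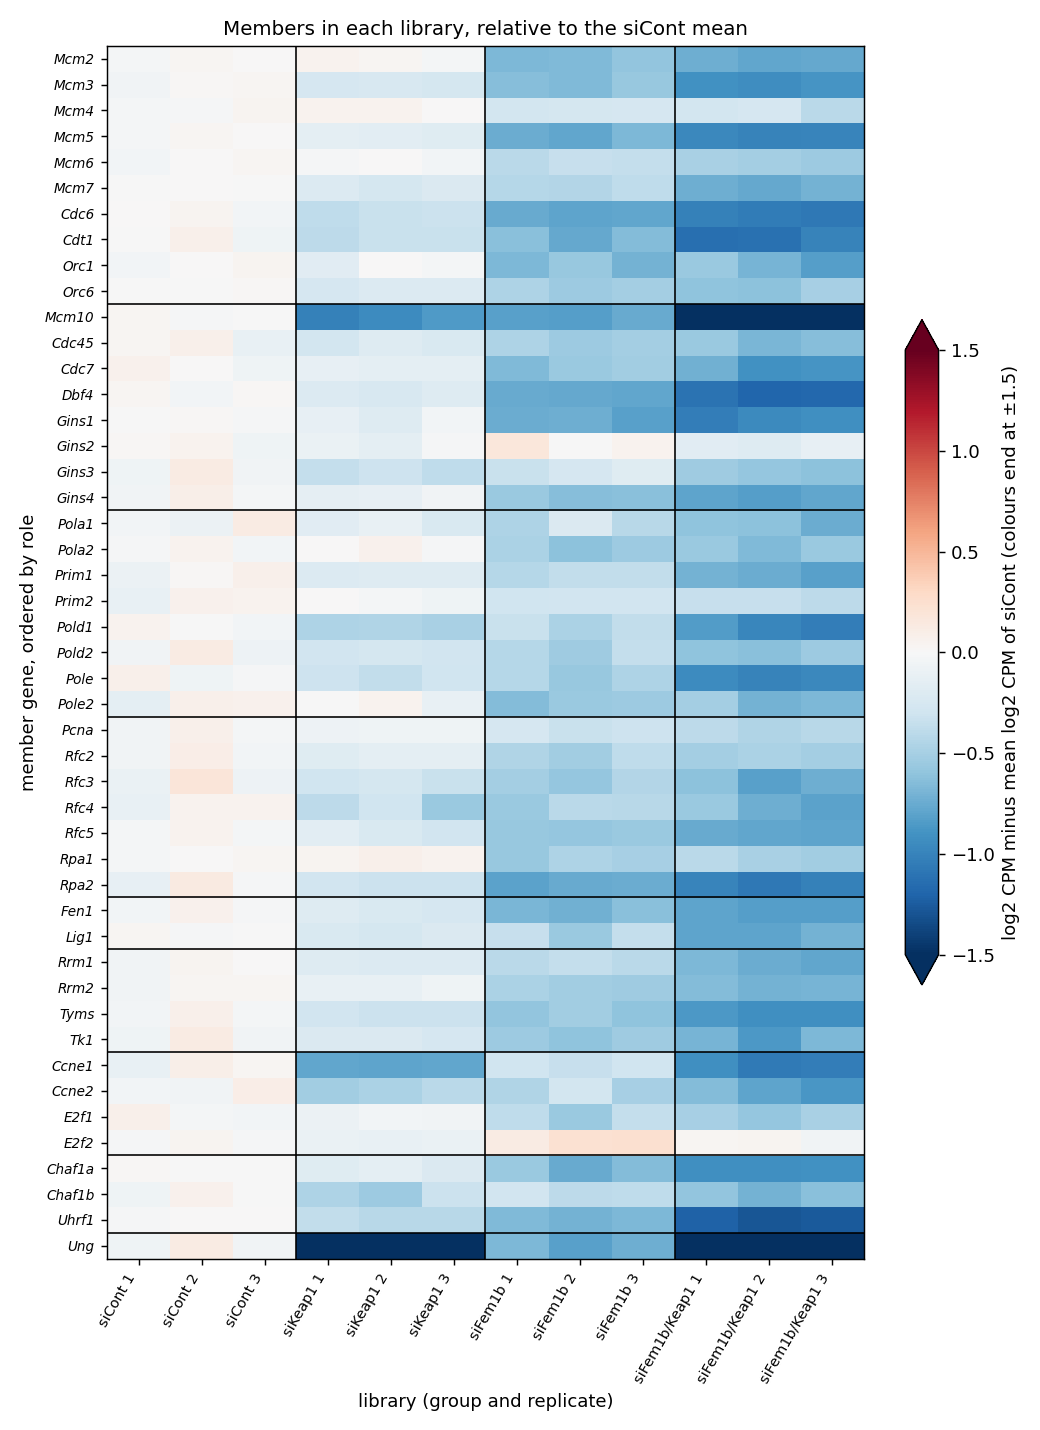
Log2 CPM of each of the 47 genes (rows, ordered by role) in each of the 12 libraries (columns), minus the mean of the 3 siCont libraries; blue is lower and red is higher, and colours end at 1.5 on either side. Blue spreads over 32 called falls in siKeap1, 45 in siFem1b and 46 in the double depletion, while Gins2 and E2f2 stay pale or red in the siFem1b libraries.

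**Figure D2:**
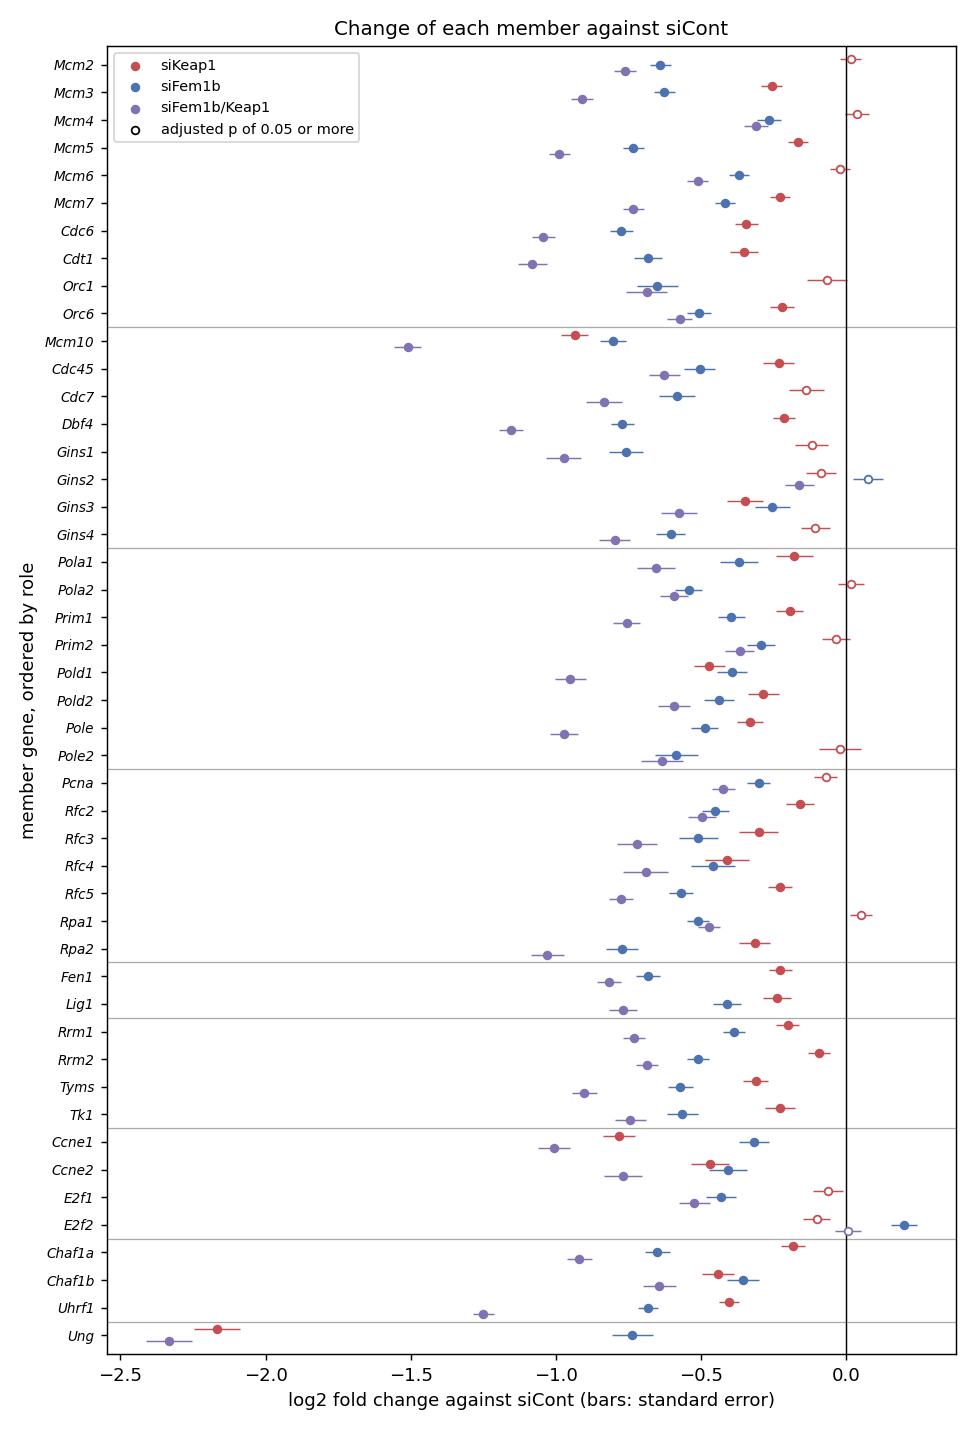
Log2 fold change of each gene against siCont (x axis) with its standard error, for siKeap1 (red), siFem1b (blue) and siFem1b/Keap1 (purple); open points did not pass an adjusted p of 0.05. Most purple points lie left of the blue ones and most blue ones left of the red ones, with Ung, Mcm10, Ccne1 and Ccne2 among the genes whose red point is left of the blue.

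Because most of the set moved together, the promoters were searched for the site that E2F factors are known to bind. A RefSeq promoter window (GRCm38.p6, 250 bases before to 50 after the annotated start) was found for 39 of the 47 genes. The words searched on both strands were TTTCCCGC, TTTGGCGC, TTTCGCGC and TTTGCCGC, which can overlap where one strand's word runs into the other's. At least 1 of them stood in the windows of 15 of the 39 genes (38.5%), against 704 of all 27025 genes with a window (2.6%). The box CCAAT was in 56.4% of the 39 genes and 41.1% of all, the CHR word TTTGAA, known from promoters of mitotic genes, in 20.5% and 20.2%, and the word TGACNNNGC, the core of the element that NRF2 binds, in 23.1% and 14.0%. These are matches of letters and not measured binding.

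The following windows are shown because they carry such words beside genes whose changes are described below, with the E2F words in capitals, or because they carry no whole word beside a large change. Mcm5 (chr8:75109259-75109558, plus strand) and Mcm6 (chr1:128359656-128359955, minus strand) encode helicase subunits, and hold 2 and 3 words, some of which overlap in opposite orientation. Cdc6 (chr11:98907901-98908200, plus strand) encodes the helicase loader, and E2f2 (chr4:136172024-136172323, plus strand) an activating E2F factor and the gene of the set that rose in siFem1b. Mcm10 (chr2:5012742-5013041, minus strand) encodes an initiation factor with no whole word in its window. That window ends in TTTGGCG, so a TTTGGCGC across its edge cannot be judged from these bases.
Mcm5: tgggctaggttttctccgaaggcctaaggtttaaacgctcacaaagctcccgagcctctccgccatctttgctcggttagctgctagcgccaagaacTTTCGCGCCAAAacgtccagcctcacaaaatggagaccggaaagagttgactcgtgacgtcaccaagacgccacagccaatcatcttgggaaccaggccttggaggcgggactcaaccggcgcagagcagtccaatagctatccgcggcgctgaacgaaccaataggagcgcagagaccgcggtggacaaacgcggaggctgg
Mcm6: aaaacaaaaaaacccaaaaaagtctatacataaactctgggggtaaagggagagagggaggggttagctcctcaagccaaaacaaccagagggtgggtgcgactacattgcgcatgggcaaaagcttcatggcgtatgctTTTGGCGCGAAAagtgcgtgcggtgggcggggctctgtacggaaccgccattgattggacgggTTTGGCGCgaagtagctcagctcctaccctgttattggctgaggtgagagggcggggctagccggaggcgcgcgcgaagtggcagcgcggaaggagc
Cdc6: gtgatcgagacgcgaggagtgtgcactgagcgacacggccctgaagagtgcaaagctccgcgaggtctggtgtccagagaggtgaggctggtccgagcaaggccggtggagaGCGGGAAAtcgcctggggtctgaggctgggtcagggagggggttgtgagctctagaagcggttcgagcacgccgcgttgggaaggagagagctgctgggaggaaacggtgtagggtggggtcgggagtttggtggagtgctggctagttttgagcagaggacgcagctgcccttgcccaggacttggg
E2f2: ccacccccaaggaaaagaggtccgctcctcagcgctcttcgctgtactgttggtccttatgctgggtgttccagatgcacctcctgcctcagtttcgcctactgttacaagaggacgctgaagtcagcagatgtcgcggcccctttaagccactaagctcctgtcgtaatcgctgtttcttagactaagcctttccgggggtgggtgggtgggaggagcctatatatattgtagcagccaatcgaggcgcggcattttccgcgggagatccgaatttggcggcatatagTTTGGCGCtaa
Mcm10: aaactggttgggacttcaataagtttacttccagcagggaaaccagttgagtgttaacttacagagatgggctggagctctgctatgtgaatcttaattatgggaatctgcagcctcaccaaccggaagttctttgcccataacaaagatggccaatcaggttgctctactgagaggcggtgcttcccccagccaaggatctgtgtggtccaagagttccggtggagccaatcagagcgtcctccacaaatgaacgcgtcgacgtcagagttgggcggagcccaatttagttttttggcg

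Genes with and without an E2F word had close medians. In siFem1b the 15 genes with a word had a median log2 fold change of -0.51 and the 24 without one -0.53. In siKeap1 the medians were -0.24 and -0.22, and in siFem1b/Keap1 -0.73 and -0.75. Single genes in siFem1b ran from -0.77 to 0.20 with a word and from -0.80 to -0.30 without. The difference between these groups was not tested.

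Origin licensing was lower as a group with siFem1b. All 10 of its genes fell in siFem1b and in siFem1b/Keap1, with medians of -0.63 and -0.75 on the log2 scale, while 6 of the 10 fell in siKeap1 with a median of -0.19. Mcm5 had the smallest p of the group in both comparisons with siFem1b. Its levels were 237, 248 and 244 CPM in siCont, 219, 217 and 214 in siKeap1, 145, 141 and 152 in siFem1b, and 124, 121 and 123 in the siFem1b/Keap1 libraries. No library of a depleted group reached the siCont range, and the siFem1b/Keap1 libraries lay below those of siFem1b. The change was 1.66-fold lower in siFem1b (log2 fold change -0.73, SE 0.036, adjusted p = 3.5e-12), 1.98-fold lower in siFem1b/Keap1 (log2 fold change -0.99, SE 0.036, adjusted p = 3.9e-14) and 1.12-fold lower in siKeap1 (log2 fold change -0.17, adjusted p = 0.00098).

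The 6 subunits of the MCM2-7 ring did not change by equal amounts. In siFem1b, Mcm5 fell by 0.73 on the log2 scale, Mcm2 by 0.64 and Mcm3 by 0.63, but Mcm7 by 0.42, Mcm6 by 0.37 and Mcm4 by 0.27 (standard errors 0.035 to 0.041). In siKeap1, Mcm3, Mcm7 and Mcm5 fell by 0.26, 0.23 and 0.17, whereas Mcm2, Mcm4 and Mcm6 had log2 fold changes of 0.02, 0.04 and -0.02 (adjusted p = 0.75, 0.47 and 0.7). The siKeap1 libraries of these last 3 genes overlapped those of siCont in CPM: for Mcm2 they were 278, 274 and 264 beside 264, 274 and 269, for Mcm4 213, 214 and 206 beside 201, 203 and 212, and for Mcm6 282, 285 and 276 beside 277, 285 and 291. Per length, the mean level of the subunits thus moved from 87.1 to 167 TPM in siCont to a range of 74.3 to 112 in siFem1b/Keap1.

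**Figure D3:**
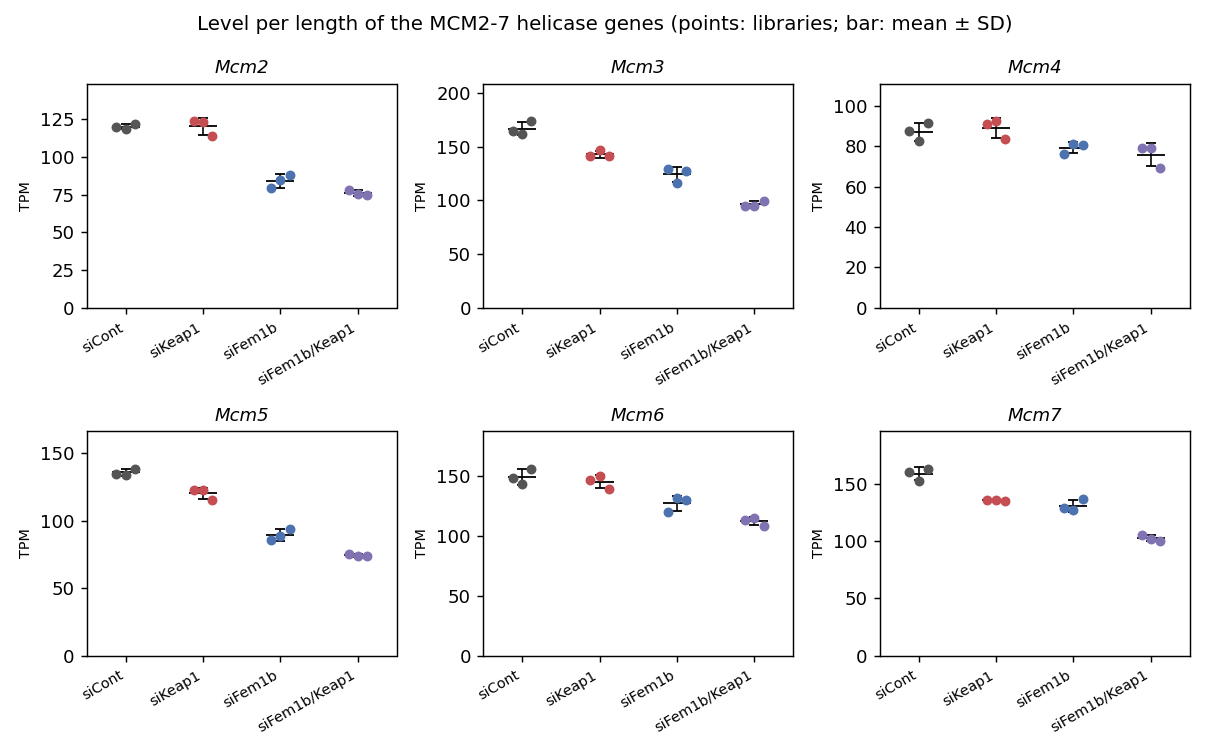
Level per length (TPM, y axis from 0) of the 6 MCM2-7 genes in each library, by group, with the mean and SD of 3 libraries. Mcm2, Mcm4 and Mcm6 sit at the siCont level in siKeap1, and all 6 are lower in siFem1b/Keap1 than in siCont.

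The loader genes Cdc6 and Cdt1 fell in all 3 comparisons with siCont. Cdc6, which with ORC opens the way for the helicase, had the smallest p of the licensing group in siKeap1. It stood at 65.4, 66.9 and 63.5 CPM in siCont, 50.2, 52.0 and 52.1 in siKeap1, 38.7, 37.7 and 38.0 in siFem1b, and 32.4, 31.6 and 31.1 in the siFem1b/Keap1 libraries. The 4 groups did not overlap. It was 1.27-fold lower in siKeap1 (log2 fold change -0.34, SE 0.040, adjusted p = 1.1e-06), 1.71-fold lower in siFem1b (log2 fold change -0.77) and 2.06-fold lower in siFem1b/Keap1 (log2 fold change -1.04). Cdt1, its partner in loading, fell by 0.35, 0.68 and 1.08 on the log2 scale in the same order. Of the origin recognition complex, Orc6 fell by 0.22, 0.51 and 0.57, and Orc1 by 0.65 in siFem1b and 0.69 in siFem1b/Keap1 but had a log2 fold change of -0.06 in siKeap1 (adjusted p = 0.5).

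The genes that switch the loaded helicase on held both some of the largest changes and an exception. Of 8, 4 fell in siKeap1, 7 in siFem1b and all 8 in siFem1b/Keap1. Mcm10, which helps CDC45 and GINS to activate the helicase (chr2:4989714-5012791, GRCm38, minus strand), stood at 69.1, 66.8 and 67.7 CPM in siCont, 33.5, 35.3 and 37.6 in siKeap1, 38.5, 38.1 and 40.2 in siFem1b, and 23.6, 24.0 and 23.9 in the siFem1b/Keap1 libraries. All depleted libraries were below siCont, the siKeap1 and siFem1b libraries lay close together, and those of siFem1b/Keap1 were lower than both. It was 1.91-fold lower in siKeap1 (log2 fold change -0.94, SE 0.046, adjusted p = 7.2e-12), 1.74-fold lower in siFem1b (log2 fold change -0.80, SE 0.045, adjusted p = 2.3e-11) and 2.85-fold lower in siFem1b/Keap1 (log2 fold change -1.51, SE 0.047, adjusted p = 4.8e-15). In siKeap1 only Ung fell by more among the 47 genes.

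Dbf4, the activating subunit of the CDC7 kinase, had the smallest p of this group in siFem1b. Its values were 97.7, 92.6 and 96.8 CPM in siCont, 82.8, 81.2 and 83.7 in siKeap1, 56.5, 56.3 and 55.6 in siFem1b, and 44.5, 42.0 and 42.4 in the siFem1b/Keap1 libraries, and the groups did not overlap. It was 1.71-fold lower in siFem1b (log2 fold change -0.77, SE 0.039, adjusted p = 4.8e-12), 2.23-fold lower in siFem1b/Keap1 and 1.16-fold lower in siKeap1. The kinase itself, Cdc7, fell by 0.58 in siFem1b and 0.83 in siFem1b/Keap1, and its log2 fold change in siKeap1 was -0.14 (adjusted p = 0.077). Cdc45 fell by 0.23, 0.50 and 0.62 in siKeap1, siFem1b and siFem1b/Keap1.

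Gins2 was the exception in this group. GINS is a complex of 4 subunits that travels with the helicase. In siFem1b, Gins1 fell by 0.76, Gins4 by 0.60 and Gins3 by 0.25 on the log2 scale, while the log2 fold change of Gins2 (chr8:120578633-120589304, minus strand) was 0.08 with an SE of 0.051 (adjusted p = 0.21). With library totals alone it was called higher (0.17, adjusted p = 0.0053), as it was among genes with at least 5 CPM in 3 libraries (0.13, adjusted p = 0.03). It stood at 57.3, 59.0 and 54.1 CPM in siCont, 53.1, 51.1 and 56.3 in siKeap1, 63.8, 56.7 and 58.9 in siFem1b, and 50.6, 49.8 and 52.0 in the siFem1b/Keap1 libraries. The siFem1b libraries overlapped those of siCont, and the siFem1b/Keap1 libraries lay below both, 1.12-fold lower than siCont (log2 fold change -0.16, adjusted p = 0.0099).

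The scale matters for Gins2, because its annotated transcripts moved in different directions. Its coding transcript, of 3900 bases, was at 19.4 to 20.7 TPM in siCont, 18.3 to 19.5 in siKeap1, 23.5 to 25.4 in siFem1b and 19.8 to 20.3 in siFem1b/Keap1. A short retained-intron transcript of 511 bases had a mean of 14.8 TPM in siCont and of 2.59 in siFem1b. The sum over all of its transcripts was therefore lower in siFem1b in TPM, at 28.6, 31.4 and 27.8 beside 40.4, 47.8 and 39.8 in siCont, although the counts were not. Short transcripts weigh more in TPM, and how reads were shared between overlapping transcripts is an estimate of the authors' tool.

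The polymerases and primase fell as a group in both sets of cells given siFem1b. All 8 genes fell in siFem1b (median -0.42) and in siFem1b/Keap1 (median -0.64), and 5 of 8 in siKeap1 (median -0.19). Pold1, the catalytic subunit of polymerase delta, which copies mainly the lagging strand, stood at 60.5, 58.0 and 56.6 CPM in siCont, 42.2, 42.5 and 41.7 in siKeap1, 46.2, 41.8 and 45.2 in siFem1b, and 32.5, 29.7 and 28.4 in the siFem1b/Keap1 libraries. The siKeap1 and siFem1b libraries overlapped each other, and both groups lay between siCont and siFem1b/Keap1. The change was 1.39-fold in siKeap1 (log2 fold change -0.47, SE 0.052, adjusted p = 5.7e-07), 1.31-fold in siFem1b and 1.93-fold in siFem1b/Keap1, all lower.

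Pole, the catalytic subunit of polymerase epsilon on the leading strand, had the smallest p in siFem1b/Keap1. Its levels were 115, 104 and 108 CPM in siCont, 87.9, 84.2 and 88.2 in siKeap1, 80.9, 73.1 and 79.0 in siFem1b, and 56.5, 54.4 and 55.7 in the siFem1b/Keap1 libraries. Every depleted library was below siCont, and siFem1b/Keap1 was 1.96-fold lower (log2 fold change -0.97, SE 0.047, adjusted p = 1.4e-12). Polymerase alpha and its primase start each new strand. Its accessory subunit Pola2 was at 74.5, 77.9 and 73.1 CPM in siCont, 75.2, 78.6 and 74.4 in siKeap1, 53.9, 49.2 and 51.5 in siFem1b, and 51.1, 47.3 and 51.0 in the siFem1b/Keap1 libraries, so that the siKeap1 libraries overlapped those of siCont (log2 fold change 0.02, adjusted p = 0.78) while siFem1b was 1.46-fold lower (log2 fold change -0.54, SE 0.046, adjusted p = 7.5e-09). The accessory subunits Pole2 and Prim2 likewise had log2 fold changes of -0.02 and -0.03 in siKeap1, and the catalytic subunits Pola1 and Prim1 fell by 0.18 and 0.19.

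The clamp, its loader and the single-strand binding protein fell in siFem1b and siFem1b/Keap1, all 7 genes in each. In siKeap1 5 of the 7 fell, and the others, Pcna and Rpa1, had log2 fold changes of -0.07 and 0.05 (adjusted p = 0.17 and 0.3). Rpa2, a small subunit of the single-strand binding protein RPA, had the smallest p in siKeap1 and in siFem1b. It stood at 52.1, 62.3 and 56.0 CPM in siCont, 46.4, 45.3 and 45.2 in siKeap1, 32.5, 33.5 and 33.8 in siFem1b, and 28.5, 26.9 and 28.0 in the siFem1b/Keap1 libraries, with no overlap between the groups. It was 1.24-fold lower in siKeap1 (log2 fold change -0.31, SE 0.054, adjusted p = 9.8e-05) and 1.71-fold lower in siFem1b (log2 fold change -0.77, SE 0.055, adjusted p = 5.6e-10).

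Subunits of 1 complex again differed. The large RPA subunit gene Rpa1 was at 265, 270.3 and 275 CPM in siCont, 277, 284 and 279 in siKeap1, 182, 196 and 191 in siFem1b, and 203, 193 and 188 in the siFem1b/Keap1 libraries, so that siKeap1 lay above siCont in every library without passing the test and siFem1b/Keap1 overlapped siFem1b. In the first run alone Rpa1 was called higher in siKeap1 (0.11, adjusted p = 0.039). Rfc5, of the complex that loads the clamp, had the smallest p of this group in siFem1b/Keap1. Its levels of 84.7, 89.8 and 85.0 CPM in siCont, 77.2, 73.8 and 70.7 in siKeap1, 58.3, 58.0 and 58.7 in siFem1b, and 51.3, 50.5 and 49.8 in the siFem1b/Keap1 libraries did not overlap between groups, and it was 1.71-fold lower in siFem1b/Keap1 (log2 fold change -0.78, SE 0.042, adjusted p = 7.0e-12). Rfc2, Rfc3 and Rfc4 fell by 0.45 to 0.51 in siFem1b and by 0.50 to 0.72 in siFem1b/Keap1. Pcna, whose product also recruits many repair factors, changed least of the 7 in both of those groups, by -0.30 and -0.42.

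Fen1 and Lig1, which trim and join the fragments of the lagging strand, both fell in all 3 comparisons. The flap endonuclease gene Fen1 was at 103, 111 and 105 CPM in siCont, 92.9, 91.1 and 89.3 in siKeap1, 66.2, 64.4 and 68.7 in siFem1b, and 61.4, 60.2 and 60.1 in the siFem1b/Keap1 libraries, with no overlap between groups. It was 1.17-fold lower in siKeap1 (log2 fold change -0.23, SE 0.040, adjusted p = 0.00015), 1.60-fold lower in siFem1b and 1.76-fold lower in siFem1b/Keap1. The DNA ligase gene Lig1 fell by 0.24, 0.41 and 0.77 on the log2 scale.

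All 4 genes of nucleotide supply fell in each comparison with siCont. Tyms, thymidylate synthase, had the smallest p in siKeap1 and siFem1b/Keap1 and stood at 83.7, 91.1 and 84.7 CPM in siCont, 70.9, 69.0 and 69.1 in siKeap1, 57.5, 60.2 and 57.0 in siFem1b, and 47.4, 45.6 and 45.8 in the siFem1b/Keap1 libraries. The groups did not overlap, and the gene was 1.24-fold lower in siKeap1 (log2 fold change -0.31, SE 0.042, adjusted p = 6.7e-06) and 1.87-fold lower in siFem1b/Keap1 (log2 fold change -0.90, SE 0.043, adjusted p = 1.2e-12). Rrm2, the highest of the set per length, was at 547, 581 and 581 CPM in siCont, 529, 527 and 546 in siKeap1, 409.8, 395 and 395 in siFem1b, and 362, 348 and 351 in the siFem1b/Keap1 libraries. Its siFem1b libraries were 1.42-fold below siCont (log2 fold change -0.51, SE 0.037, adjusted p = 7.2e-10). In siKeap1 all 3 of its libraries were below siCont, but by 1.07-fold only (adjusted p = 0.049), a call that held in 2 of 10 other fits and in 3 of the 12 that left out a library. Rrm1, the large reductase subunit, fell by 0.20, 0.39 and 0.73, and Tk1 by 0.23, 0.56 and 0.74.

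The 4 genes of G1/S control did not move as a group. Ccne1 (chr7:38097984-38107534, minus strand), cyclin E1, which activates CDK2 at the entry into S phase, stood at 41.8, 47.9 and 46.2 CPM in siCont, 26.4, 26.1 and 26.4 in siKeap1, 36.7, 35.6 and 36.7 in siFem1b, and 23.8, 21.6 and 22.1 in the siFem1b/Keap1 libraries. It was 1.72-fold lower in siKeap1 (log2 fold change -0.78, SE 0.054, adjusted p = 1.0e-09), beside 1.25-fold in siFem1b (log2 fold change -0.32, SE 0.052, adjusted p = 3.4e-05), and the libraries of the latter groups did not overlap. In siFem1b/Keap1 it was 2.01-fold lower (log2 fold change -1.01, SE 0.055, adjusted p = 7.5e-12). Ccne2, the second cyclin E gene, fell by 0.47, 0.41 and 0.77.

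Of the activating E2F genes, E2f1 followed the majority and E2f2 did not. E2f1 was at 61.8, 57.5 and 57.0 CPM in siCont, 55.2, 57.3 and 56.4 in siKeap1, 45.0, 39.8 and 46.0 in siFem1b, and 41.7, 39.3 and 41.8 in the siFem1b/Keap1 libraries, so that siKeap1 overlapped siCont (adjusted p = 0.37) and siFem1b was 1.35-fold lower (log2 fold change -0.43, SE 0.053, adjusted p = 8.9e-07). E2f2 (chr4:136172394-136196057, plus strand) was at 41.4, 43.2 and 41.4 CPM in siCont, 39.1, 38.9 and 39.3 in siKeap1, 45.7, 49.2 and 49.8 in siFem1b, and 42.9, 43.0 and 40.5 in the siFem1b/Keap1 libraries. All 3 siFem1b libraries were above all 3 of siCont, by 1.15-fold (log2 fold change 0.20, SE 0.045, adjusted p = 0.00075), whereas siFem1b/Keap1 overlapped siCont (log2 fold change 0.01, adjusted p = 0.91). The scale matters for E2f2 as well. Its level per length was low in all groups, at 13.7 to 14.1 TPM in siCont, 13.1 to 14.6 in siKeap1, 15.6 to 19.4 in siFem1b and 15.1 to 16.4 in siFem1b/Keap1. In TPM the siFem1b/Keap1 libraries thus lay above those of siCont. With library totals alone E2f2 was also called higher in siFem1b/Keap1 than in siCont (log2 fold change 0.13, adjusted p = 0.018).

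The chromatin genes all fell, and Uhrf1 had the smallest p of its group in each comparison with siCont. UHRF1 brings the maintenance methyltransferase DNMT1 to newly copied DNA. Uhrf1 (chr17:56303321-56323486, plus strand) was at 265, 269 and 269.5 CPM in siCont, 207, 201 and 200.4 in siKeap1, 169, 164 and 168 in siFem1b, and 116, 110.3 and 112 in the siFem1b/Keap1 libraries. The groups did not overlap. It was 1.32-fold lower in siKeap1 (log2 fold change -0.40, SE 0.034, adjusted p = 2.0e-08), 1.60-fold lower in siFem1b (log2 fold change -0.68, SE 0.034, adjusted p = 4.7e-12) and 2.38-fold lower in siFem1b/Keap1 (log2 fold change -1.25, SE 0.035, adjusted p = 1.1e-15), the smallest p-value of the whole set. Chaf1a and Chaf1b, subunits of the factor that places histones behind the fork, differed in pattern: Chaf1a fell by 0.18, 0.65 and 0.92 and Chaf1b by 0.44, 0.35 and 0.64 in siKeap1, siFem1b and siFem1b/Keap1.

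Ung stood apart from all other genes of the set in siKeap1. It encodes uracil-DNA glycosylase, which removes uracil that was built into DNA during copying or arose by deamination (chr5:114130386-114139323, plus strand). Its levels were 21.6, 24.5 and 21.7 CPM in siCont, 5.33, 4.86 and 4.89 in siKeap1, 14.1, 12.9 and 13.6 in siFem1b, and 4.12, 4.56 and 4.75 in the siFem1b/Keap1 libraries. The siKeap1 and siFem1b/Keap1 libraries lay close together far below siCont, with those of siFem1b between, and no groups overlapped. It was 4.49-fold lower in siKeap1 (log2 fold change -2.17, SE 0.079, adjusted p = 8.5e-14), 1.67-fold lower in siFem1b (log2 fold change -0.74, SE 0.070, adjusted p = 3.4e-08) and 5.04-fold lower in siFem1b/Keap1 (log2 fold change -2.33, SE 0.080, adjusted p = 1.5e-14). Both of its coding transcripts took part: the mean fell from 10.1 to 2.34 TPM for the longer and from 6.82 to 1.21 for the shorter between siCont and siKeap1.

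**Figure D4:**
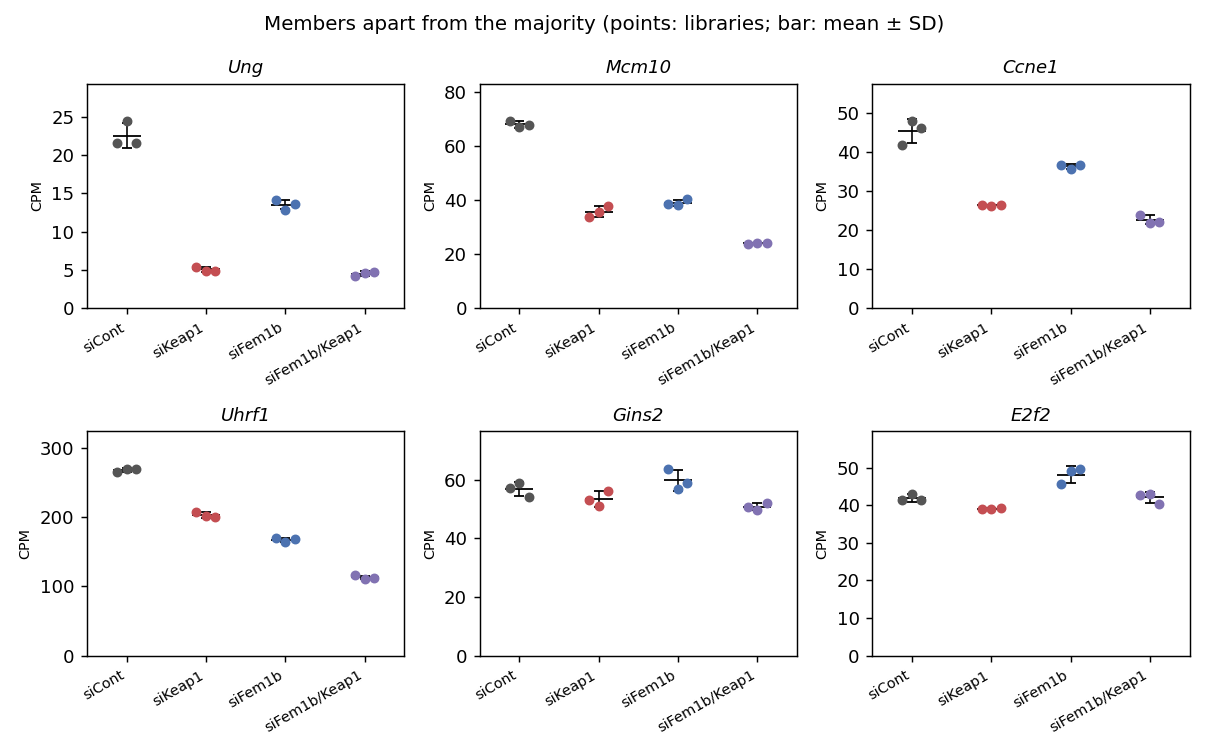
CPM (y axis from 0) of 6 genes in each library, by group, with the mean and SD of 3 libraries. Ung, Mcm10 and Ccne1 are lower in siKeap1 than in siFem1b, Uhrf1 steps down through all 4 groups, and Gins2 and E2f2 do not fall in siFem1b.

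An siRNA can also lower transcripts that pair with its seed, bases 2 to 8 of the guide strand, much as a miRNA does, so the transcripts were searched for such matches. The guides, the reverse complements of the deposited sequences, are shown with the seed in capitals. The deposited siKeap1 sequence was found whole in 5 annotated transcripts of Keap1 and that of siFem1b in 1 of Fem1b, in sense orientation, and in no transcript of another gene in that orientation. In antisense orientation, the siKeap1 sequence was found whole in 1 annotated transcript and that of siFem1b in 0.
siKeap1 guide: uCCGUGUCaacauuggcgc
siFem1b guide: uAAUUCUGcacugaucuuc

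A match of the siKeap1 seed was present in 8 of the 47 genes (17.0%, against 11.2% of 13871 genes searched), in the coding transcript with the highest level. For Ung (chr5:114138481-114138487, GRCm38) and Pold1 (chr7:44532779-44532785) a match lay in the 3' UTR, where such matches are known to act most. For Rpa2 (chr4:132771946-132771952), Ccne1 (chr7:38099521-38099527) and Uhrf1 (chr17:56309556-56309562) it lay in the coding sequence. The sites are shown with the match in capitals, because each of these 5 genes had the smallest p of its role in siKeap1. Ung is the only gene of its role. Cdc6, Mcm10, Fen1 and Tyms, which had the smallest p of the other roles in siKeap1, held no match of this seed.
Ung: agtggagaaatGACACGGatagatctcta
Pold1: cctggtgacctGACACGGgacaaggaata
Rpa2: gtcagtgggttGACACGGatgatgccagt
Ccne1: cctatgtcaacGACACGGgtgaggtgctg
Uhrf1: ctgtgtgggagGACACGGacctggggctg

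All 8 genes with a match fell in siKeap1, where their median was -0.38 on the log2 scale, and 24 of the 39 without one fell, with a median of -0.18. Among all genes searched, 38.4% of the 1556 with a match anywhere were called lower in siKeap1, 47.6% of the 328 with one in the 3' UTR, and 23.0% of the 12315 with none. In siFem1b, whose siRNA has another seed, 32.9% of genes with and 32.9% of genes without such a match were called lower, and the 8 genes had a median of -0.58 and the 39 one of -0.51. The other genes with a match were Cdt1, Mcm7 and Pole, in the coding sequence. The part that pairing with the seed had in these falls was not tested.

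For siFem1b, 16 of the 47 genes held a seed match (34.0%, against 23.5% of all), and 15 of them fell. Their median in siFem1b was -0.54, beside -0.51 for the 31 genes without. Among all genes searched, 41.2% of the 3259 with a match of this seed anywhere were called lower in siFem1b, 44.2% of the 1662 with one in the 3' UTR, and 30.3% of the 10612 with none. E2f2 is among the 7 with a match in the 3' UTR, and it rose. Whether these matches had a part in any change was not tested. The control siRNA has a seed too, and its match was in 12 of the 47 genes (25.5%, against 32.8% of all genes searched). In the 3' UTR it was in 4 (8.5%, against 22.8%), among them Ung. The part of this seed in the differences from siCont was not tested.

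siFem1b and siKeap1 were also compared directly, in the same model over all 12 libraries. In siFem1b 37 of the 47 genes were lower than in siKeap1 (31.8% of all genes were called lower), 5 were higher (32.1%) and 5 did not pass. The median log2 difference was -0.29. The 5 higher genes were Ung (2.70-fold), Ccne1 (1.38-fold), E2f2 (1.23-fold), Gins2 (1.12-fold) and Mcm10 (1.10-fold, adjusted p = 0.018). The smallest p-values among the lower genes were those of Mcm2 (log2 difference -0.66, SE 0.037), Mcm5 (-0.57), Rpa1 (-0.56), Pola2 (-0.56) and Dbf4 (-0.56). E2f1 was lower by -0.37, against the direction of Ccne1 and E2f2 in the same role. Of the 42 calls, 35 stood in every alternative fit. That of Mcm10 was lost in the second run alone (adjusted p = 0.17) and without siKeap1 replicate 1 or 2 or siFem1b replicate 3, and that of Gins2 without siKeap1 replicate 2 or siFem1b replicate 1. With library totals in place of the trimmed mean scaling, 32 were lower and 8 higher.

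Adding siFem1b to siKeap1 lowered most genes once more. Between siFem1b/Keap1 and siKeap1, 44 genes were lower (31.6% of all genes), 1 was higher (32%) and 2 did not pass, with a median of -0.53. Dbf4 was 1.92-fold lower, Uhrf1 1.80-fold, Mcm5 1.77-fold and Mcm2 1.72-fold. The gene that was higher was E2f2, by 1.08-fold (adjusted p = 0.047), a call that held in 2 of the 12 fits that left out a library. Ung had a log2 difference of -0.17 (adjusted p = 0.13) and Gins2 of -0.07 (adjusted p = 0.22).

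Adding siKeap1 to siFem1b lowered fewer genes and by less. Between siFem1b/Keap1 and siFem1b, 37 genes were lower (21.8% of all genes), 0 were higher (21.3%) and 10 did not pass, with a median of -0.24. Ung was 3.02-fold lower, Mcm10 1.64-fold, Ccne1 1.61-fold, Uhrf1 1.48-fold and Pold1 1.47-fold. Rpa1 (0.04), Pola2 (-0.05) and Mcm4 (-0.04) were among those that did not pass, as they were for siKeap1 against siCont. Of the 37 calls, 28 stood in every alternative fit, and 31 to 37 genes were called when a library was left out.

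The interaction asks whether the double depletion departs from the sum of the separate changes on the log2 scale. For 44 of the 47 genes it did not pass the threshold, and the median interaction was -0.04. The 3 called were 2 positive and 1 negative, beside 11.4% of all tested genes called in either direction (6.11% positive and 5.32% negative). This split depended on the fit: it was 1 positive and 5 negative with the DESeq2 Wald test, and 2 and 0 with a block for replicate number. Ung had a positive interaction (log2 difference 0.57, SE 0.12, adjusted p = 0.003): siKeap1 lowered it by 2.17 on the log2 scale without siFem1b and by 1.60 with it. Mcm10 was also positive (log2 difference 0.23, SE 0.066, adjusted p = 0.034), with a drop of 0.94 without and 0.71 with siFem1b. Uhrf1 was negative (log2 difference -0.17, SE 0.049, adjusted p = 0.034), dropping by 0.40 without and 0.57 with siFem1b.

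These 3 interactions differ in how far they held. That of Ung passed in all 12 fits that left out a library and in 8 of 9 others. It did not pass in the first run alone (0.15, adjusted p = 0.75), while the second run alone gave 0.69. That of Mcm10 passed in 2 and that of Uhrf1 in 5 of the 12 fits that left out a library. Among the other fits, that of Mcm10 missed the threshold with the DESeq2 Wald test (adjusted p = 0.055) and with no filter on low counts (0.065). It also missed in the first run alone (0.44) and in the second (0.11). That of Uhrf1 missed it with no filter on low counts (0.11) and with the replicate block (0.053). A p that misses the threshold does not show that the changes add up, and for Dbf4 the interaction was -0.17 (adjusted p = 0.054).

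**Figure D5:**
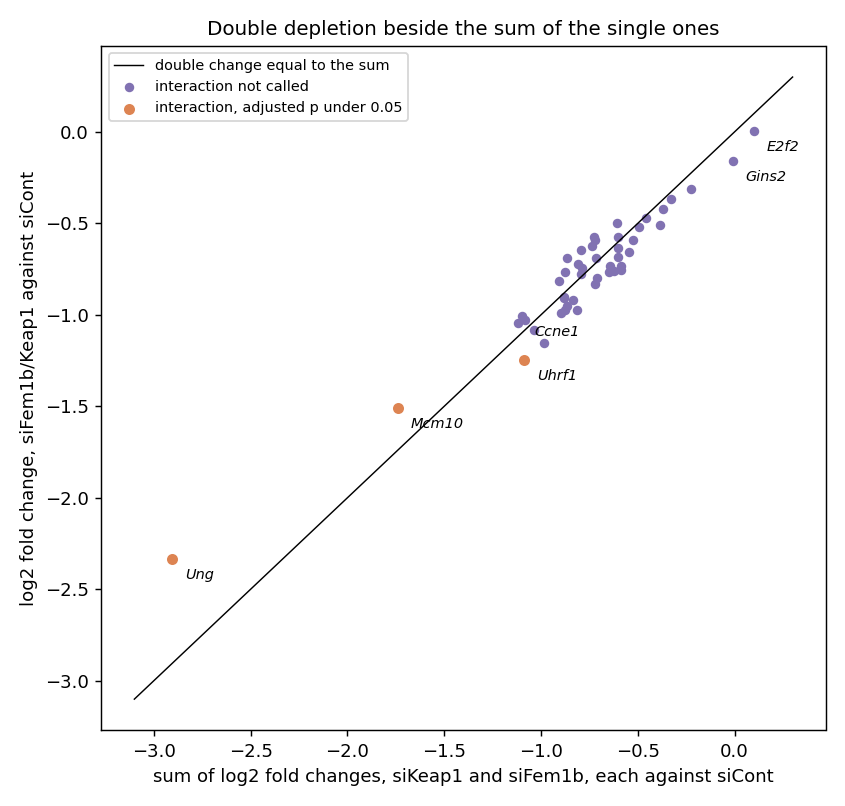
Log2 fold change in siFem1b/Keap1 (y axis) against the sum of the log2 fold changes in siKeap1 and siFem1b (x axis) for the 47 genes, all relative to the same siCont libraries. Most points lie near the line of equal values, Ung and Mcm10 lie above it (interactions of 0.57 and 0.23) and Uhrf1 below it (-0.17).

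Most other genes of replication that were listed were also lower. Of 47 further replication genes listed (loaders, checkpoint mediators, histone chaperones, nucleotide enzymes), 26 fell and 2 rose in siKeap1, 41 fell and 1 rose in siFem1b, and 42 fell and 2 rose in siFem1b/Keap1, with medians of -0.16, -0.40 and -0.62. The shares of all genes called lower were the 23.8%, 32.1% and 33.7% given above. Cdca7, a chromatin factor, was at 17.1, 18.1 and 17.7 CPM in siFem1b beside 39.4, 43.7 and 42.7 in siCont (2.38-fold lower). Pold4, the small accessory subunit of polymerase delta, rose 1.72-fold in siKeap1, from 17.6, 20.1 and 17.8 to 31.0, 31.3 and 32.8 CPM, and Samhd1, which breaks deoxynucleotides down and is named here as the single further gene that rose in siFem1b, rose 1.29-fold there. Samhd1 was named after its values were seen.

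The mitosis genes fell in each comparison as well: 26 of 26 in siKeap1, 25 of 26 in siFem1b and 26 of 26 in siFem1b/Keap1, with medians of -0.34, -0.47 and -1.004. In siKeap1 and in siFem1b/Keap1 that median was beyond the medians of -0.22 and -0.74 of the 47 replication genes. In siFem1b it was not, at -0.47 beside -0.51. Top2a, which untangles copied chromosomes, was 1.54-fold lower in siKeap1, and the mitotic kinesin gene Kif20a 2.48-fold lower in siFem1b.

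Of the genes that hold back or drive the entry into S phase, some rose and some fell. Cdkn1a, which encodes the CDK inhibitor p21, was at 129, 136 and 129 CPM in siCont, 205, 205 and 213 in siKeap1, 274, 273 and 268 in siFem1b and 323, 339 and 339.7 in the siFem1b/Keap1 libraries. It rose 1.58-fold, 2.07-fold and 2.55-fold against siCont, in the inverse order of the summed replication genes. A relation between Cdkn1a and the replication genes was not tested. Cdkn1b, which encodes p27, fell in siKeap1 (log2 fold change -0.41) and rose in siFem1b (0.55). Of the 10 tested CDK inhibitors and G1 cyclins 1 rose and 7 fell in siKeap1, 7 rose and 2 fell in siFem1b, and 3 rose and 5 fell in siFem1b/Keap1. Of all genes, 18.4%, 30% and 33.8% were called higher in these comparisons, and 23.8%, 32.1% and 33.7% lower. Ccnd1, cyclin D1, was 1.69-fold lower in siFem1b, and the inhibitor genes Cdkn2a and Cdkn2b had 0 estimated counts in all 12 libraries.

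In the E2F and RB family of 11 genes, 7 fell and 1 rose in siKeap1. In siFem1b 7 fell and 3 rose, and in the double depletion 8 fell and 2 rose. Of all genes, 23.8%, 32.1% and 33.7% were called lower in these comparisons and 18.4%, 30% and 33.8% higher. Rb1, which encodes the retinoblastoma protein, rose 1.81-fold in siFem1b, and E2f7 and E2f3 fell by 0.66 and 0.70 on the log2 scale in siKeap1. Of 14 tested histone genes that are transcribed with replication, 2 fell in siKeap1. In siFem1b 4 rose and 2 fell, and in siFem1b/Keap1 3 rose and 5 fell. None of these counts was far above the shares just given for all genes. The summed level of the listed histone genes was 26.6 to 31.6 CPM in siCont and at most 24.3 in siKeap1. It was 47.6 to 49.5 in siFem1b and at most 42.4 in siFem1b/Keap1, so that in both groups given siFem1b it was above siCont. The median log2 fold change of the 14 tested histone genes was nevertheless negative there, at -0.515 with siFem1b alone and -0.725 with both siRNAs. With siKeap1 alone that median was -0.03. The higher sums were thus not shared by the typical histone gene. Such transcripts mostly lack the poly(A) tail on which the RNA was selected.

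Most myotube markers rose in the siFem1b groups, where nearly all of the replication genes fell. All 10 myotube markers rose in siFem1b and 9 of 10 in siFem1b/Keap1, while 1 rose and 4 fell in siKeap1. Myog, which encodes the factor that commits myoblasts to differentiation, was at 1.54, 1.85 and 1.32 CPM in siCont, 0.0312, 0.0260 and 0.0528 in siKeap1, 57.2, 58.4 and 62.2 in siFem1b and 5.22, 5.47 and 4.21 in the siFem1b/Keap1 libraries. The replication genes were lowest in siFem1b/Keap1, the myotube markers highest in siFem1b. Among markers of other cell types, the 7 epithelial ones summed to 9.63 to 11.5 CPM in siCont, 62.8 to 67.7 in siKeap1, at most 17.5 in siFem1b and 40.5 to 42.4 in siFem1b/Keap1, mostly Krt14. The 4 neural markers summed to 208.7 to 214 CPM in siCont and 292 to 313 in siKeap1, nearly all of it Tubb3, and the 6 macrophage and leukocyte markers to 11.1 to 12.8 and 17.3 to 19, with all 3 that were tested called higher. The 7 myoblast markers summed to 1709 to 1828 CPM in siKeap1, where 3 fell, and to 2356 to 2483 in siFem1b, where 6 rose. Over all tested genes, 18.4% were called higher and 23.8% lower in siKeap1, 30% and 32.1% in siFem1b, and 33.8% and 33.7% in siFem1b/Keap1. The part of the marker changes in those of the replication genes was not tested.

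Of the calls against siCont, all 46 in siFem1b and 45 of 46 in siFem1b/Keap1 stood in every alternative fit, the exception being Gins2 in the latter, lost in 3 fits (log2 fold change -0.04, adjusted p = 0.53, with library totals alone). In siKeap1, 26 of 32 stood in every fit. Besides Rrm2, the calls of Cdc45, Prim1, Rfc2, Chaf1a and Pola1 were lost in the first run alone, which held at most 13.1 M counts per library. That of Pola1 was also lost with library totals alone (adjusted p = 0.083) and with at least 5 CPM in 3 libraries (adjusted p = 0.069). Of the 12 fits that left out a library, the call of Pola1 was lost in 6 and that of Rfc2 in 1.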

How the data were processed

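Poly(A)-selected RNA of 12 C2C12 libraries (4 siRNA groups of 3) was sequenced in 2 runs per library. The authors estimated transcript abundance with kallisto 0.44.0 on mm10, per the submitters' processing notes, and deposited 24 tables with estimated counts and TPM per transcript. The deposited estimated counts were summed per gene (GENCODE M21; 98.51% of transcripts matched) and over both runs, rounded, filtered with filterByExpr and TMM-scaled (factors 0.952 to 1.04). The deposited TPM were summed over transcripts and averaged over runs, and they carry no depth. Library totals were 31.9 M to 43.0 M. One edgeR 4.0.16 quasi-likelihood model in R 4.3.3 over all 12 libraries gave 7 comparisons, adjusted by Benjamini-Hochberg over 14577 genes, with 0.05 as the threshold. CPM are TMM-scaled, and the standard error is the absolute log2 fold change over the square root of F. The script was tested on simulated data.

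Per role, values in every library are given for the gene with the smallest p in each comparison with siCont, for genes called against their role's majority and for called interactions; Mcm2, Mcm4, Mcm6 and Rpa1 were added after their values were seen. Of other lists, up to 4 genes with the smallest p are named. The members and lists were chosen with earlier results of these data known. Alternatives were other scalings, filters, tools (DESeq2 1.42.0, limma 3.58.1), single runs, a replicate block and left-out libraries. Promoter windows and siRNA matches are exact letter searches.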

Additional observations from a re-analysis of the deposited data

Results flagged for a closer look

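The effect of siKeap1 on 3 of the 47 genes differed between cells with and without siFem1b by the interaction test. For Ung the interaction was 0.57 on the log2 scale, for Mcm10 it was 0.225, and for Uhrf1 it was -0.165. A positive value means that the fall with siKeap1 was smaller in cells that also received siFem1b, and a negative one that it was larger. No group had enough libraries for a check of single libraries that stand apart.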

How the results depend on the processing

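No called result changed direction under any alternative run. Over all alternatives, 76 results of single genes that passed the threshold in neither fit changed sign. The count of called interactions among the 47 genes, 3, depended most on the choices: it was 6 with the DESeq2 Wald test, 1 with no filter on low counts, 7 with at least 5 CPM in 3 libraries and 5 in the second run alone, and 1 to 8 when a library was left out. It was 8 without siFem1b replicate 2, 5 without siFem1b/Keap1 replicate 1, and 1 without siCont replicate 1 or 3, siKeap1 replicate 1 or 2, siFem1b replicate 1 or siFem1b/Keap1 replicate 2. By direction, 1 was positive and 5 negative with the DESeq2 Wald test, and 2 and 5 with at least 5 CPM in 3 libraries. The split was 0 and 3 in the first run alone, 1 and 4 in the second, and 1 and 7 without siFem1b replicate 2. It was 2 and 1 with limma-voom and 2 and 0 with the replicate block. With a library left out, the genes called numbered 30 to 32 for siKeap1 and 46 for siFem1b and for siFem1b/Keap1 against siCont, 44 to 45 for siFem1b/Keap1 against siKeap1, 31 to 37 against siFem1b, and 38 to 43 for siFem1b against siKeap1. The replicate block gave 2 interactions; same-numbered libraries did not deviate together (18 correlations from -0.078 to 0.117), and 2 of 12 libraries matched their own number best, so the numbers were not taken as pairs. With library totals in place of TMM scaling, the median of all genes moved by 0.099 in siFem1b and 0.123 in siFem1b/Keap1. The split over all genes then was 5457 higher and 3547 lower in siFem1b (4373 and 4674 with TMM), 6134 and 3746 in siFem1b/Keap1 (4934 and 4906), 5680 and 3526 for siFem1b/Keap1 against siKeap1 (4665 and 4602) and 5395 and 3815 for siFem1b against siKeap1 (4675 and 4635). Of the 47 genes, 45 were then lower and 2 higher in siFem1b, with Gins2 added at 0.174, and 45 lower and 1 higher in siFem1b/Keap1, with E2f2 added at 0.13. The first run alone, with at most 13.1 M counts per library, lost 6 of the 32 siKeap1 calls and gained a rise of Rpa1. The interaction was not fitted on the compared groups only, since it uses all 4.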
